A study of Mus musculus with 8 samples.

Results

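The solute carriers are the large set of membrane proteins, named Slc in the mouse, that move amino acids, sugars, nucleotides, metals, and inorganic ions across membranes. Their mRNAs were followed in an RNA immunoprecipitation experiment (RIP-seq) on eIF4A2, a DEAD-box RNA helicase of the translation initiation machinery. Of the 52550 genes in the count table, 371 were protein-coding with a symbol of Slc and a digit. The 123 described here were selected on measured values, because they had a CPM (gene reads scaled to the total on genes) of at least 5 in each of the 4 input libraries. They comprised 24 of the 47 mitochondrial carriers of the Slc25 family and 99 other Slc genes. Their input levels therefore describe the choice and test nothing. Of the other 248 genes, 66 had 0 counts in all 8 libraries. Just inside the floor lay *Slc44a4* and *Slc2a5*, with lowest inputs of 5.14 and 5.23 CPM, and just outside lay *Slc25a25* and *Slc52a2*, with 4.99 and 4.98 CPM.

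All libraries came from *Eif4a2* knockout (KO) mouse embryonic stem cells (ESCs), given either an empty vector (EV) or Flag-eIF4A2. Libraries were made from the input and from the anti-Flag immunoprecipitate, in 4 groups of 2: input EV, input Flag-eIF4A2, RIP EV, and RIP Flag-eIF4A2. Cells grew in medium with 15% serum, LIF (10 ng/ml), and the 2i inhibitors CHIR99021 (1.5 µM) and PD0325901 (0.5 µM), and were harvested after 2 d. Immunoprecipitations used 5 µg of antibody for 3 h, and the EV cells hold no Flag-tagged eIF4A2. For the re-expressing cells the study states that replicates were separate clones made with transposon vectors. For EV the sources used here do not say what a replicate was, so p-values cover no more than the library-to-library spread, possibly technical. One label of RIP Flag-eIF4A2 replicate 2 names another eIF4A gene than its title.

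Most solute carriers are synthesized at the endoplasmic reticulum (ER), where the signal recognition particle delivers the ribosome to the Sec61 channel and the membrane segments are inserted during translation. Most Slc25 carriers take another route. They are made in the cytosol and enter the inner mitochondrial membrane through the TOM pore and the TIM22 complex, although a few family members, such as *Slc25a46* and the peroxisomal *Slc25a17*, reside elsewhere. ESCs rely on this repertoire for glucose, lactate, phosphate, and amino acid traffic. The other 99 belonged to families of both kinds of membrane and cargo, and 4 of them share the name but are not transporters (*Slc4a1ap*, *Slc7a6os*, *Slc9a3r1*, and *Slc9a3r2*). In all, 35 of the 49 Slc families in the table were represented, led by Slc25 and by Slc35 with 14 genes.

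Reads on genes ranged from 2044853 in RIP EV replicate 1 to 11206420 in RIP Flag-eIF4A2 replicate 1. *Eif4a2* itself had 53.8 and 94.2 CPM in input EV and 86.8 and 69.1 CPM in input Flag-eIF4A2. A tag at the 3′ end says nothing of an interrupted reading frame, so this does not check the labels. All 8 naive ESC markers were above 5 CPM in every input, whereas 8 of 11 markers of differentiated or feeder cells were below it in every input. The RIP EV libraries stood apart from the rest. Their replicates differed with a biological coefficient of variation of 171%, against 23.1% to 30.1% in the other groups. Each pairwise comparison was therefore fitted on its own 4 libraries, which keeps the RIP EV spread out of the comparisons without RIP EV. In the comparisons with RIP EV, a shared estimate still covered groups of unlike spread.

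The Slc transcripts showed this contrast directly. All 123 had a read in each input and in each RIP Flag-eIF4A2 library, but 76 and 103 had 1 in RIP EV replicates 1 and 2. Between replicates, 117 of 123 lay within a factor of 2 in RIP Flag-eIF4A2 and 118 in input Flag-eIF4A2, against 108 in input EV and 52 in RIP EV. Of the reads in the table, 19.9% and 29.9% fell on genes in RIP EV and 68.2% and 68.1% in RIP Flag-eIF4A2, and the part of this difference in the absences was not tested.

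**Figure D1:**
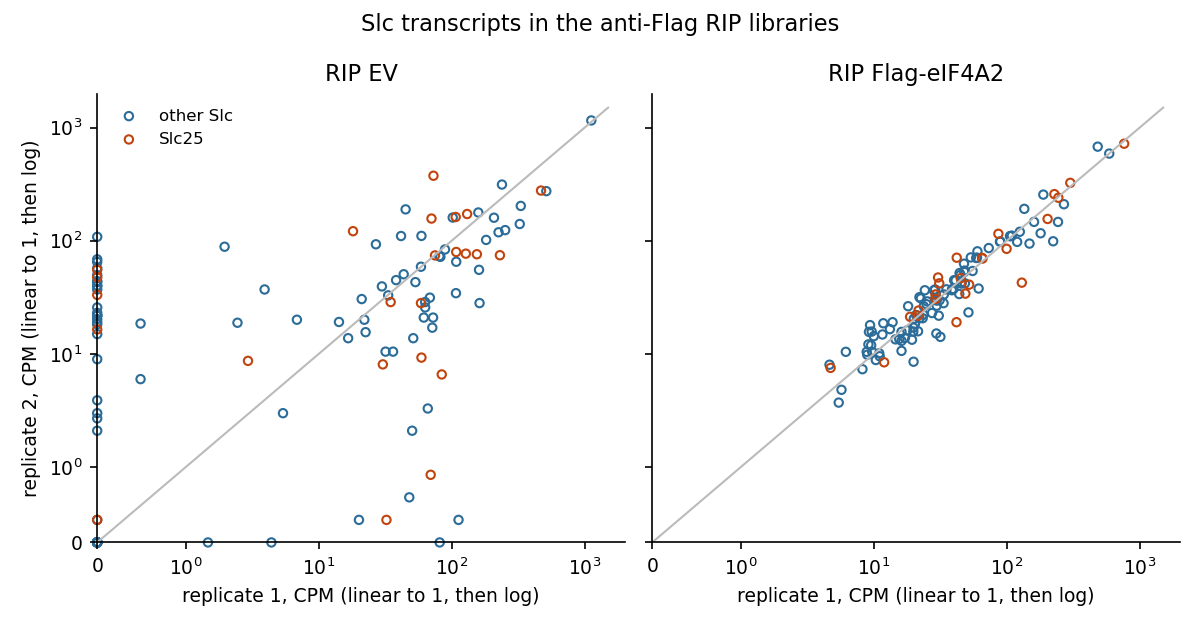
Levels of the 123 Slc transcripts in replicate 1 (horizontal) and replicate 2 (vertical) of RIP EV (left) and RIP Flag-eIF4A2 (right), in CPM on axes that are linear up to 1 and logarithmic above, 1 circle per transcript, with the line of equality in grey. In RIP Flag-eIF4A2, 117 transcripts lay within a factor of 2 of the line, whereas in RIP EV 52 did and many sat on an axis at 0 in 1 library.

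QuantSeq counts a tag near the 3′ end, so CPM does not scale with transcript length. Reads without a unique alignment, 44.5% to 52.1% in the inputs, were not counted on genes. The order of different genes below is therefore an order of counted reads and only roughly one of abundance. Among the transcripts kept by the floor, the median over the inputs was 52.7 CPM for the mitochondrial carriers and 25.1 CPM for the other Slc transcripts. Both classes were cut on these same inputs, so the medians describe the choice. The leading Slc25 transcript was *Slc25a4*, which encodes an ADP/ATP exchanger of the inner membrane, with 772 and 722 CPM in input EV and 821 and 534 CPM in input Flag-eIF4A2. It was followed by the phosphate carrier *Slc25a3* and the aspartate/glutamate carrier *Slc25a13*. Of the others, the glucose transporter *Slc2a3* led with 583 and 255 CPM in input EV and 725 and 1021 CPM in input Flag-eIF4A2, before the phosphate transporter *Slc20a1* and *Slc3a2*, the heavy chain that carries amino acid exchangers to the surface. Summed over the class, Slc25 transcripts took 2687 to 3093 CPM of the inputs and 2529 to 2614 CPM of RIP Flag-eIF4A2. The other Slc transcripts took 4772 to 6284 CPM of the inputs and 5541 to 5583 CPM of RIP Flag-eIF4A2. The summed range in the RIP thus lay below that of the inputs for Slc25 and inside it for the rest.

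To ask which transporter mRNAs were over- or under-represented with Flag-eIF4A2 relative to their abundance, RIP Flag-eIF4A2 was set against its own input. Few Slc transcripts were higher in the RIP and more were lower. Of 123, 2 were higher (1.63%) and 10 lower (8.13%) with edgeR at an adjusted p under 0.05. Among all 8020 transcripts over the same input floor the shares were 9.05% and 9.50%, and among all 10754 transcripts tested 8.44% and 8.46%. The share of Slc transcripts that were lower was thus near that of the background, and the share that were higher was under it. Leaving out 1 library moved the lower count to 2 (without RIP replicate 1), 4 (without RIP replicate 2), or 19 (without input replicate 1), and the higher count to 1 without RIP replicate 2. The background shares moved in the same direction in each of these fits, so the swing is no property of the Slc transcripts alone. With the spread shared over all 8 libraries edgeR called 0 and 0 Slc transcripts, and 0 and 6 of the 8020. The median log2 fold change was -0.35 for Slc25 and -0.27 for the other Slc transcripts, against -0.01 for all transcripts over the floor, and 83 of 123 values (67.5%) were negative, against 50.7%. The inputs that set the floor also enter this comparison, for the members as for the background.

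This split depends on the scaling. By CPM alone, 37 Slc transcripts had both RIP libraries above both inputs (background 46.3%) and 30 had them below (background 19.6%), whereas TMM-scaled CPM gave 15 above (background 31.4%) and 56 below (background 32.3%). With library size alone, edgeR called 6 higher (background 19.3%) and 3 lower (background 5.35%), and it placed the median of all transcripts tested at 0.33 in place of 0.02. The medians of both classes were below that value, at -0.05 for Slc25 and 0.04 for the others.

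The 2 transcripts that were higher in the RIP encode a transporter of the amino acid transporter family Slc38 and a potassium-chloride cotransporter. *Slc38a10* had 56.9 and 86.9 CPM in the inputs and 269 and 210.1 CPM in the RIP, a log2 fold change of 1.43 (SE 0.29, edgeR adjusted p = 0.013). *Slc12a4*, which encodes the potassium-chloride cotransporter, had 16.7 and 15.4 CPM in the inputs and 48.1 and 54.4 CPM in the RIP, a log2 fold change of 1.37 (SE 0.29, edgeR adjusted p = 0.014). Neither pair of RIP libraries overlapped its inputs. The next in rank was *Slc45a4*, with 21.2 and 14.9 CPM against 48.5 and 42.0 CPM and a log2 fold change of 1.01, which did not pass (edgeR adjusted p = 0.051). *Slc38a10* held its call without any single library, and *Slc12a4* lost it without RIP Flag-eIF4A2 replicate 2 (edgeR adjusted p = 0.081).

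The 7 transcripts outside Slc25 that were lower in the RIP were spread over cargoes. *Slc41a3*, of a magnesium transporter family, had 14.7 and 23.6 CPM in the inputs and 4.64 and 8.02 CPM in the RIP (log2 fold change -1.89, SE 0.42, edgeR adjusted p = 0.016). *Slc29a3*, which encodes a nucleoside transporter of lysosomes, had 124 and 160.0 CPM against 59.7 and 70.9 CPM (log2 fold change -1.42, SE 0.28, edgeR adjusted p = 0.011). *Slc38a4*, which encodes a sodium-coupled amino acid transporter, had 186 and 301 CPM against 148 and 94.3 CPM (log2 fold change -1.31, SE 0.32, edgeR adjusted p = 0.024). In all 3, both RIP libraries lay below both inputs. The others were the zinc transporter *Slc39a11*, the monocarboxylate transporter family members *Slc16a6* and *Slc16a3*, of which *Slc16a3* exports lactate, and the iron transporter *Slc11a2*, with log2 fold changes of -0.93 to -1.06. These 4 lost the call in 3 of 4 fits that left out a library, namely without either RIP Flag-eIF4A2 library and without input replicate 2, where their edgeR adjusted p lay between 0.067 and 0.241. *Slc41a3* and *Slc29a3* lost it without RIP Flag-eIF4A2 replicate 1 (0.077 and 0.061 by edgeR, adjusted p) and *Slc38a4* without replicate 2 (edgeR adjusted p = 0.136).

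Of the 24 mitochondrial carriers, 3 were lower in the RIP (12.5%, background 9.50%) and none was higher (background 9.05%). *Slc25a5*, the other abundant ADP/ATP exchanger, had 289 and 159 CPM in the inputs and 129.7 and 42.6 CPM in the RIP (log2 fold change -1.71, SE 0.49, edgeR adjusted p = 0.041). *Slc25a40*, of a pair linked to mitochondrial glutathione import, had 13.4 and 17.3 CPM against 4.73 and 7.52 CPM (log2 fold change -1.63, SE 0.40, edgeR adjusted p = 0.024). *Slc25a46*, an outer membrane protein of mitochondrial dynamics, had 59.1 and 73.7 CPM against 31.1 and 42.0 CPM (log2 fold change -1.16, SE 0.29, edgeR adjusted p = 0.024). *Slc25a5* had the widest spread of these in the RIP and lost its call without RIP replicate 2 (edgeR adjusted p = 0.116). A processed pseudogene of *Slc25a5* is annotated, so its counts are uncertain. *Slc25a40* and *Slc25a46* lost theirs without RIP replicate 1 (edgeR adjusted p = 0.142 and 0.168). The largest values in the other direction, 0.67 for the mitoferrin *Slc25a28* and 0.46 for *Slc25a38*, a carrier for glycine in heme synthesis, did not pass the test (edgeR adjusted p = 0.16 and 0.27).

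**Figure D2:**
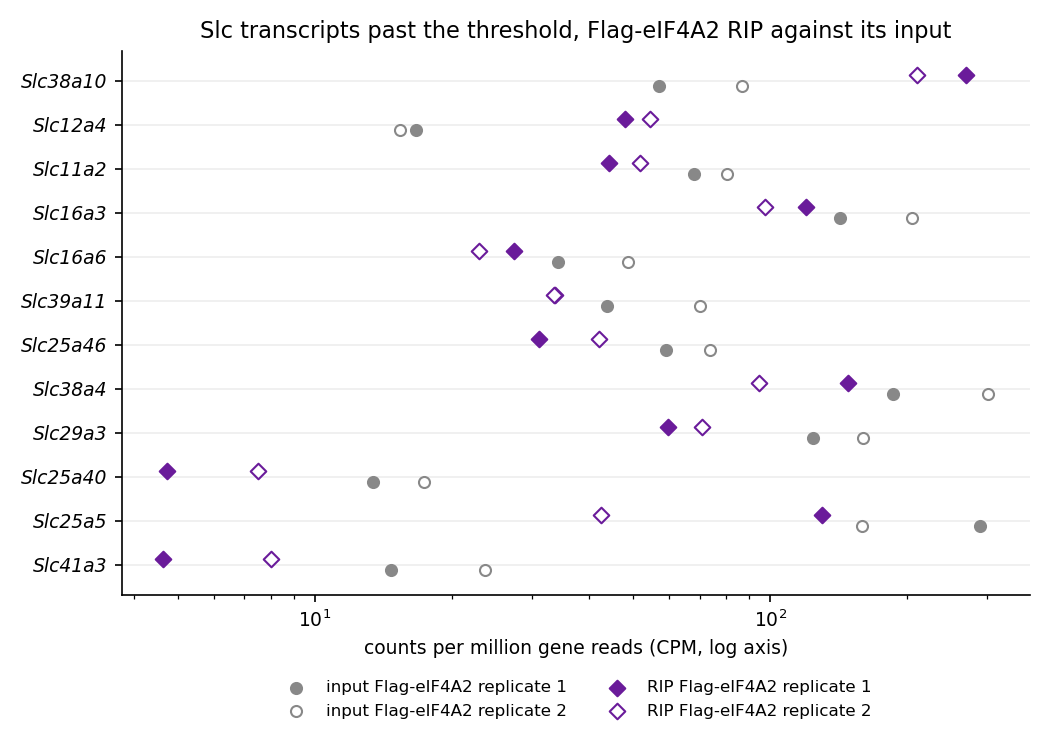
CPM of the 12 Slc transcripts past the threshold in the input (grey circles) and RIP (purple diamonds) of Flag-eIF4A2 cells, on a logarithmic axis, with replicate 1 filled and replicate 2 open. The RIP libraries lay above the inputs for *Slc38a10* and *Slc12a4* and below them for the other 10.

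The sequences around the start codon are shown for 6 of these mRNAs, because an initiation helicase acts between the cap and this site and because paralogs with different values can be read side by side. Each line gives 15 bases before the start codon, the start codon in capitals, and 12 bases after it, from the GENCODE M21 transcript on GRCm38, 5′ to 3′ in the sense of the mRNA.
Slc38a10 (chr11:120151064-120151093, minus strand): ccctagaccctcaaaATGacggccgcctcc
Slc12a4 (chr8:105966025-105966054, minus strand): ggccaagcgcgcgcgATGcctcacttcacc
Slc41a3 (chr6:90611894-90611923, plus strand): ctcagccgtgtgctgATGgaagggacagaa
Slc38a4 (chr15:97019828-97019857, minus strand): gggctgtgaggtcaaATGgaccccatggaa
Slc25a5 (chrX:36795716-36795745, plus strand): ttttttgctttcaacATGacagatgccgct
Slc25a4 (chr8:46210908-46210937, minus strand): cgcccggctttcagcATGggggatcaggct
A purine at position -3, counted from the A of the start codon, is the best known feature of a favorable context, followed by a G at position +4. The purine was present in 105 of 121 Slc transcripts with a window (86.8%), in 10 of the 12 past the threshold (83.3%), and in 86.9% of protein-coding transcripts over the floor. The G was present in 62.8% of the Slc transcripts and in 54.1% of the background. It was present in 6 of the 12 past the threshold. These shares are descriptions and were not tested.

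Values differed within families. The pair *Slc25a4* and *Slc25a5* encodes closely related exchangers of the same cargo, yet *Slc25a4* had 763 and 720.2 CPM in the RIP, inside the spread of its inputs, with a log2 fold change of -0.19 (SE 0.31, edgeR adjusted p = 0.71). In the Slc38 family, values ran from 1.43 for *Slc38a10* to -1.31 for *Slc38a4*, with *Slc38a2*, which is induced when amino acids are scarce, at -0.10. Of the lactate transporters, *Slc16a3* was lower, whereas *Slc16a1* had 39.7 and 37.4 CPM in the RIP against 35.7 and 30.7 CPM and a log2 fold change of -0.09. The potassium-chloride cotransporter *Slc12a7* had a log2 fold change of 0.65, beside 1.37 for *Slc12a4*. These differences between genes were not tested.

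Whole families were grouped by their main cargo, with lists written after earlier results of these data were known. Single members can therefore carry another cargo than their class name says. The medians ranged from below the background to the level of it. In the background over the floor, 9.05% were higher and 9.50% lower. The hexose and monocarboxylate families had the lowest median log2 fold change, -0.67 over 11 transcripts, with 2 lower and 0 higher. This class includes *Slc5a6*, which encodes a biotin and pantothenate transporter. The glucose transporters *Slc2a3* (725 and 1021 CPM in the inputs, 483 and 678 CPM in the RIP) and *Slc2a1* (106 and 135 CPM, 88.9 and 98.0 CPM) lay below their inputs in both libraries at log2 fold changes of -0.88 and -0.67, and neither passed the test (edgeR adjusted p = 0.075 and 0.11). Zinc transporters followed with -0.51 over 11, with 1 lower. The median was -0.29 over 10 transporters of nucleosides, folate, choline, and vitamins, with 1 lower. For 14 transcripts of the Slc35 family, most of whose characterized members carry nucleotide sugars, it was -0.23 with none past the threshold. At an unadjusted p under 0.05 by edgeR, 2 of these 14 were lower, against 1492 of 8020 in the background. The median was -0.10 over 17 amino acid transporters, with 1 higher and 1 lower. Over 21 inorganic ion exchangers and cotransporters it was 0.01, with 1 higher and 2 lower. The remaining 11 transporters had a median of -0.33 with none past the threshold.

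Transporters of the amino acid response, which cells raise when amino acids run short, were too few to be set apart from the background. Of the 7 over the floor, none passed the test with edgeR and 1 was lower at an unadjusted p under 0.05, at a median of -0.10. In the background, 1492 of 8020 were lower at that unadjusted p. *Slc7a5*, the light chain of the leucine exchanger, had 148 and 274 CPM in the inputs and 243 and 147 CPM in the RIP. Its partner *Slc3a2* had 163 and 358 CPM against 135 and 191 CPM, with a log2 fold change of -0.96 (edgeR adjusted p = 0.10). For both genes the ranges of input and RIP overlapped.

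**Figure D3:**
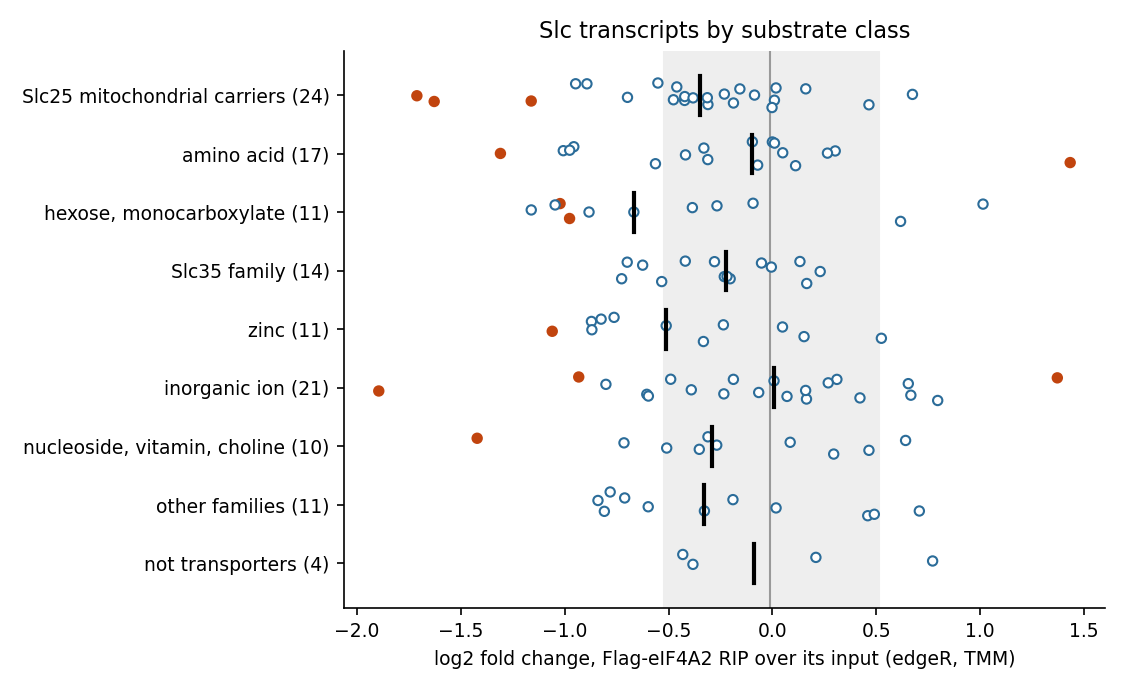
Log2 fold change of RIP Flag-eIF4A2 over its input for each Slc transcript, by class, with the number of transcripts in brackets. Filled circles passed the threshold, black bars are class medians, and the grey line and band give the median and the quartiles of all 8020 transcripts over the same floor. Classes are whole families named by their main cargo. Class medians ran from -0.67 for the hexose and monocarboxylate families to 0.01 for the inorganic ion families.

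The machineries that build these proteins were read from lists written in the same way. In the background over the floor, 9.05% were higher and 9.50% lower. Of 28 transcripts for ER targeting and insertion over the floor, 4 were lower (14.3%) and 0 higher, at a median log2 fold change of -0.57. The 4 encode channel or channel-associated proteins, *Sec61a1* (-1.99), *Sec62* (-1.63), *Sec63* (-1.52), and *Sec61g* (-1.17). For mitochondrial carrier import, 1 of 13 was lower (7.69%), *Timm22* (-2.63), the channel of that complex, at a median of 0.02. Mitochondrial transporters without an Slc symbol had a median of -0.63 over 9, with *Sfxn1* (-1.77) and *Vdac1* (-1.36) lower (22.2%). ATP-driven pumps and their subunits, with ABC transporters, most of which also are membrane proteins with many segments, had a median of 0.29 over 18. The calcium pumps *Atp2a3* (1.00) and *Atp2c1* (0.97) were higher (11.1%) and none was lower. Differences between the lists were not tested.

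Coding length went along with the change from input to RIP in the background more than in the Slc transcripts. Over 7743 protein-coding transcripts above the floor, the Spearman correlation of coding length and log2 fold change was 0.51, against 0.26 over the 99 other Slc transcripts and 0.01 over the 24 Slc25 transcripts. These are descriptions across genes of the same libraries, in sets that are not matched for length. Under 1000 bases lay 15 of the 24 Slc25 transcripts, and from 1000 to under 2000 bases lay 65 of the 99 others. For coding lengths under 1000 bases the median log2 fold change of Slc transcripts was -0.24 (25 transcripts), near the -0.31 of the background. From 1000 to under 2000 bases it was -0.33 (72 transcripts) against -0.08, and for 2000 bases or more it was -0.13 (26 transcripts) against 0.62. The class of 2000 bases or more has no upper limit. Lengths within a class were not matched between the Slc transcripts and the background. In this last class 2 of 26 Slc transcripts were higher (7.69%), against 25.8% of the background. Both transcripts that were higher, *Slc38a10* and *Slc12a4*, had coding lengths in this class (3270 and 3261 bases).

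**Figure D4:**
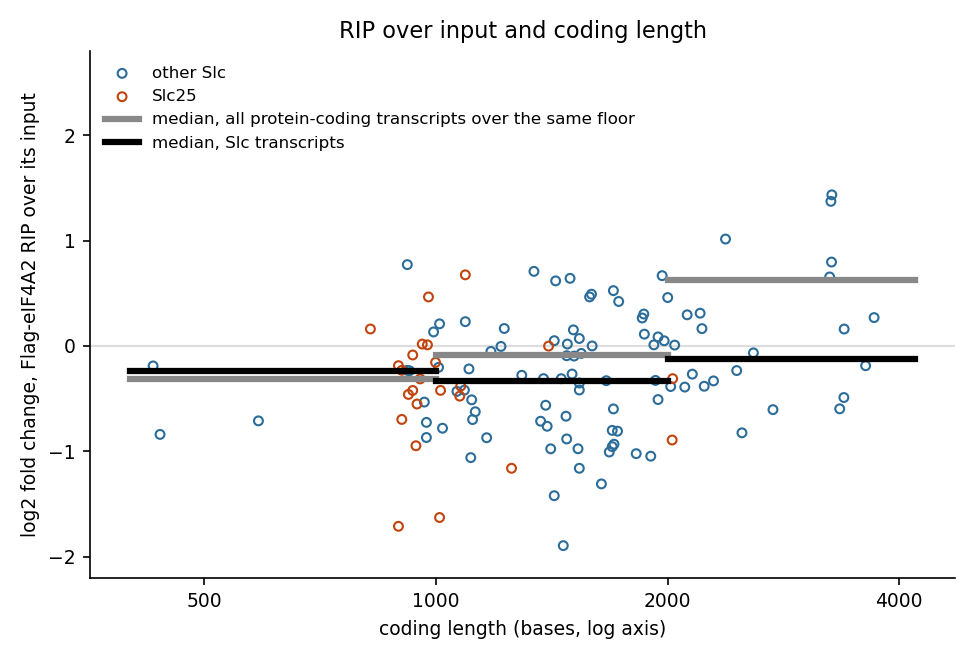
Log2 fold change of RIP Flag-eIF4A2 over its input against coding length in bases on a logarithmic axis, 1 circle per Slc transcript, with medians of 3 length classes for Slc transcripts (black) and for all protein-coding transcripts over the same floor (grey). In the class of 2000 bases or more the medians were -0.13 and 0.62. This class has no upper limit, and lengths within it were not matched.

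Against RIP EV, which measures what the beads and antibody retain without the tagged protein, edgeR called 0 of the 123 Slc transcripts and 0 of all 10754 tested, with a lowest adjusted p of 0.065 in both sets. The absence of calls is therefore no property of the Slc transcripts. At an unadjusted p under 0.05 there were 20 higher and 7 lower, where the background was 15.2% and 6.13%. DESeq2 on the same 4 libraries gave 10 higher (background 9.49%) and 7 lower (background 5.67%), limma voom with group weights 0 and 0. For 53 Slc transcripts both RIP Flag-eIF4A2 libraries exceeded both of RIP EV (background 48.7%), and for 24 both were below (background 14.1%). The median log2 fold change was -0.02 for Slc25 and 0.38 for the other Slc transcripts, against 0.47 for the background. The count rests on the RIP EV spread. Without RIP EV replicate 1 there were 54 higher (background 39.5%) and 29 lower (background 22.3%). Without replicate 2 there were 65 (background 56.5%) and 38 (background 20.5%), in fits where the lone RIP EV library was assumed to vary like the other group.

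Of 123 Slc transcripts, 17 had no read in either RIP EV library (13.8%, background 8.13%). The shares are not matched for abundance. The median input was 29.3 CPM for the Slc transcripts and 25.1 CPM for those outside Slc25, against 37.2 CPM for the background. All 17 were outside Slc25, and a further 33 were at 0 in 1 of the libraries, 30 of them in replicate 1. These 17 had 5.31 to 45.9 CPM in input EV and 6.16 to 44.5 CPM in RIP Flag-eIF4A2. At their input EV level, between 28.8 and 244 reads would have fallen on each in both RIP EV libraries together. Set against 3 counts over both RIP EV libraries (0.557 CPM), they were 14.7-fold to 76.8-fold higher in RIP Flag-eIF4A2, with a median of 27.0-fold. These are lower bounds for counting error alone. They do not cover the spread between the RIP EV replicates (biological coefficient of variation 171%), and the 17 were picked for their 0 counts. *Slc2a5*, for example, had 81.2 CPM in RIP EV replicate 1 and 0 CPM in replicate 2. Reads also carry no molecular identifiers.

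Among these 17, *Slc9a3r2*, a scaffold that binds sodium-proton exchangers, had 41.2 and 44.5 CPM in RIP Flag-eIF4A2 and a counting bound of 76.8-fold. The zinc transporter *Slc30a2* had 38.8 and 37.3 CPM and a counting bound of 68.4-fold. *Slc35f6* had 25.3 and 29.1 CPM and a counting bound of 48.6-fold. For all 3 the edgeR adjusted p was 0.065. Absence in RIP EV went with low abundance, since 10 of 39 Slc transcripts with a mean input under 20 CPM, 7 of 45 between 20 and 50 CPM, 0 of 16 between 50 and 100 CPM, and 0 of 23 above had no read in either library. The absence of Slc25 transcripts from this set stands beside their higher input median, and its cause was not tested.

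**Figure D5:**
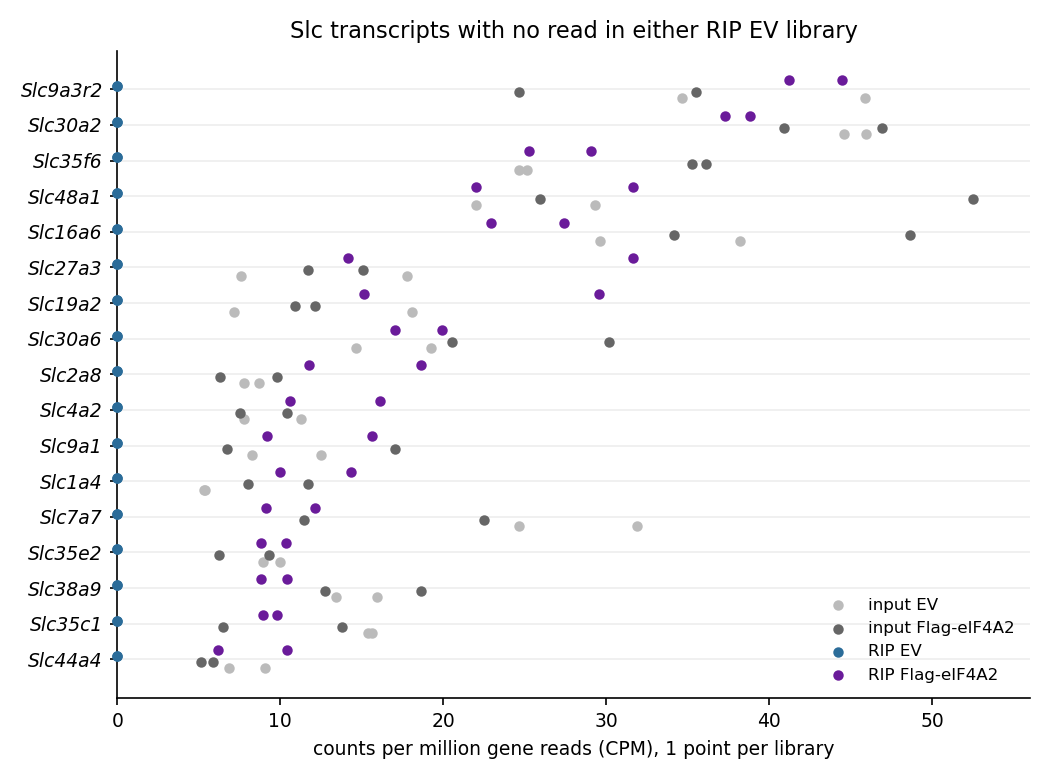
CPM in each of the 8 libraries for the 17 Slc transcripts with no read in RIP EV, 1 point per library, ordered by the bound on their fold difference. RIP EV points sit at 0, whereas RIP Flag-eIF4A2 points range from 6.16 to 44.5 CPM, among those of the inputs.

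Within Slc25, the largest differences between the RIPs in either direction also failed the test with edgeR. *Slc25a23*, an ATP-magnesium/phosphate carrier, had 12.0 and 8.42 CPM in RIP Flag-eIF4A2 but 0 and 0.299 CPM in RIP EV (edgeR adjusted p = 0.065). *Slc25a5* had 0 and 16.4 CPM against 129.7 and 42.6 CPM. On the other side, *Slc25a38* had 155 and 75.9 CPM against 45.1 and 46.6 CPM, and the oxoglutarate carrier *Slc25a11* had 230.3 and 74.4 CPM against 65.1 and 70.6 CPM. In these last 2 the lower RIP EV library stood within a factor of 2 of the RIP Flag-eIF4A2 libraries.

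Some Slc transcripts were more frequent in RIP EV than anywhere else. The sodium-proton exchanger family member *Slc9b1* had 208 and 159.6 CPM in RIP EV, 23.7 and 26.4 CPM in RIP Flag-eIF4A2, and 32.2 to 45.3 CPM in the inputs, with a log2 fold change between the RIPs of -3.10 (SE 0.47, edgeR adjusted p = 0.065). *Slc5a6*, which encodes a biotin and pantothenate transporter, had 68.5 and 31.4 CPM in RIP EV, but 5.71 and 4.81 CPM in the other RIP. *Slc7a6os* had 325 and 141 CPM against 35.2 and 37.2 CPM. The abundant phosphate transporter *Slc20a1* had 1121 and 1156 CPM in RIP EV, 589.9 and 589 CPM in RIP Flag-eIF4A2, and 409 to 526 CPM in the inputs (log2 fold change -1.18, SE 0.21, edgeR adjusted p = 0.065). For these 4, both RIP EV libraries lay above all 6 others. None passed the threshold with edgeR, whereas DESeq2 called all 4, with adjusted p-values of 8.06e-07 for *Slc9b1*, 0.000169 for *Slc20a1*, 0.000718 for *Slc7a6os*, and 0.00714 for *Slc5a6*.

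RIP EV was also set against its own input. EdgeR called 0 of the 123 Slc transcripts and 0 of all 10754 tested. At an unadjusted p under 0.05 it gave 5 higher and 21 lower (background 5.00% and 15.4%). DESeq2 on these libraries gave 5 higher (background 3.22%) and 9 lower (background 6.27%), limma voom 0 and 0. Both RIP EV libraries lay above both inputs for 18 Slc transcripts (background 17.3%) and below both for 49 (background 39.7%). The largest values among the former were those of *Slc7a6os* and of *Slc12a7*, with 108 and 65.2 CPM in RIP EV against 13.9 and 14.7 CPM in input EV. The largest among the latter were *Slc30a2* and *Slc9a3r2*, at 0 counts. These comparisons share the RIP EV libraries with those above and are not independent of them.

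In 1 fit of all 8 libraries, the change from input to RIP was tested for a difference between the cell lines. It was larger in Flag-eIF4A2 cells for 19 Slc transcripts (background 12.0%) and smaller for 2 (background 2.54%). The 19 were the 17 without a read in RIP EV, *Slc25a23*, and *Slc35a1*, a CMP-sialic acid transporter named after its values were seen. The 2 were *Slc9b1* and *Slc20a1*. This fit shares 1 estimate of the spread between groups that differ in it, and with a weight per group (limma voom) 0 were larger and 0 smaller. DESeq2 gave 28 larger (background 17.7%) and 9 smaller (background 6.35%). Leaving out input EV replicate 1, either input Flag-eIF4A2 library, or either RIP Flag-eIF4A2 library removed the calls, in the background too. Without input EV replicate 2 they fell, and without either RIP EV library they rose, again in both sets.

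Between the inputs, edgeR called 0 of the 123 Slc transcripts and 0 of all 10754 tested. At an unadjusted p under 0.05, 4 Slc transcripts were higher and 2 lower (background 3.45% and 3.22%), and DESeq2 and limma voom also called 0 and 0 of them. Both input Flag-eIF4A2 libraries lay above both input EV libraries for 20 Slc transcripts (background 19.7%) and below both for 21 (background 17.2%). Since these inputs set the floor, the values are a description. *Slc2a3* had 583 and 255 CPM in input EV against 725 and 1021 CPM, a log2 fold change of 1.02, and *Slc25a36*, a pyrimidine nucleotide carrier, had 103 and 93.6 CPM against 169.7 and 219 CPM, a log2 fold change of 0.97. The largest values downward were *Slc35g1*, with 17.9 and 55.9 CPM against 13.4 and 13.2 CPM, and the phosphate transporter *Slc20a2*, with 94.5 and 264 CPM against 90.5 and 71.8 CPM, where 1 input EV library held most of the difference. In these bulk samples, fewer cells with a transcript and less of it per cell cannot be told apart.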

How the data were processed

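RNA from anti-Flag immunoprecipitates and inputs of *Eif4a2* KO ESCs was analysed in 8 libraries, 2 per group. According to the study's methods and the submitters' processing notes, the authors prepared QuantSeq 3′ libraries, used bbduk for trimming, STAR (version 2.5.3a) for alignment to mm10, and HTSeq-count (version 0.11.2) for assignment to genes. They deposited raw counts, not normalized. For the annotation release and the strand setting, the answer is not given in the sources used here, so overlapping and antisense genes and near-identical copies are uncertain. The 5 summary lines of the counter stayed out of totals and tests. Gene reads ranged from 2044853 to 11206420 per library, and 27.0% to 52.1% of the reads in the table had no unique alignment.

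Of 52550 gene identifiers, 52403 matched GENCODE M21 (GRCm38), used for names, positions, and lengths. The 10754 transcripts tested reached 1 CPM in every input. Each comparison was fitted with edgeR (version 4.0.16, R version 4.3.3) on its own 4 libraries by quasi-likelihood with TMM scaling, and the interaction on all 8. Benjamini-Hochberg adjustment covered all transcripts tested, at a threshold of 0.05. The steps were tested on simulated data. Alternatives were DESeq2 (version 1.42.0), limma voom (version 3.58.1), other scalings, filters, and floors, a replicate block, and leaving out each library. A count without the 4 genes that are not transporters and the order by TMM-scaled CPM were added after seeing the data.

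Members, lists, and tests were chosen with earlier results of these data known. Named genes are the 3 most abundant of each class, the largest values in each direction among transcripts whose groups did not overlap by CPM (2 and 2 in Slc25 and 3 and 3 in the rest for the RIP Flag-eIF4A2 comparisons, 2 and 2 overall for the others), a textbook panel, and those next to the floor. Other transcripts past the threshold are also named.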

Additional observations from a re-analysis of the deposited data

Results flagged for a closer look

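The change from input to RIP differed between the cell lines for some Slc transcripts, by the interaction test of edgeR over all 8 libraries. It was larger in Flag-eIF4A2 cells for 19 (background 12.0%) and smaller for 2 (background 2.54%) of them. With limma voom there were 0 and 0, and with DESeq2 28 larger (background 17.7%) and 9 smaller (background 6.35%). The calls were lost without input EV replicate 1, either input Flag-eIF4A2 library, or either RIP Flag-eIF4A2 library. They fell without input EV replicate 2 and rose without either RIP EV library. The background moved in the same way. The fitted differences were -2.87 on the log2 scale for *Slc9b1* and -1.27 for *Slc20a1*, both of which were more frequent in RIP EV than in any other group. They were 5.21 for *Slc25a23*, 9.02 for *Slc44a4*, 9.66 for *Slc35f6*, 10.71 for *Slc30a2*, and 11.25 for *Slc9a3r2*. The last 4 had 0 counts in both RIP EV libraries, so that their fitted values depend on the prior count and are no bounds. The bounds on the ratio of the RIPs, for counting error alone, were 14.7-fold for *Slc44a4* and 76.8-fold for *Slc9a3r2*. The biological coefficient of variation was 171% in RIP EV against 23.1% to 30.1% in the other groups, and its part in these differences was not tested.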

How the results depend on the processing

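For RIP Flag-eIF4A2 against its input, RLE scaling, filterByExpr, no filter, DESeq2, and limma voom gave 2 or 3 Slc transcripts higher and 9 to 14 lower, against 2 and 10. The background was 7.82% to 12.3% higher and 8.79% to 11.8% lower in these fits. The fit of all 8 libraries called 0 and 0 (background 0.00% and 0.0748%), and library size alone 6 and 3 (background 19.3% and 5.35%). Leaving out each library gave 1 to 3 higher and 2 to 19 lower, with 2 lower without RIP replicate 1, 4 without RIP replicate 2, and 19 without input replicate 1. In the fits named here, the lower share of the background moved in the same direction. TMM-scaled CPM placed 15 above (background 31.4%) and 56 below (background 32.3%), in place of 37 (background 46.3%) and 30 (background 19.6%). Against RIP EV, DESeq2 called 10 higher and 7 lower and the fit of all 8 libraries 21 and 8, in place of 0 and 0, and leaving out each library gave 0 to 65 and 0 to 38. For RIP EV against its input, DESeq2 called 5 and 9 and the fit of all 8 libraries 5 and 22, and leaving out each library gave 0 to 27 and 0 to 64. Between the inputs, DESeq2 called 0 higher (background 0.112%) and 0 lower (background 0.0499%). Leaving out input EV replicate 1 brought some calls, among Slc transcripts and in the background. For the difference between the cell lines (19 and 2), DESeq2 gave 9 smaller, library size 1 smaller, and limma voom 0 and 0, and leaving out each library gave 0 to 59 larger and 0 to 21 smaller. The causes were not tested.

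The labels do not say that a replicate number marks a shared clone or batch, and the correlation of replicate differences was -0.03, 0.00, 0.12, and 0.02 in the 4 comparisons. With the replicate number as a block, there were 5 lower (background 7.31%) in place of 10 for RIP Flag-eIF4A2 against its input. *Slc38a4*, *Slc39a11*, *Slc16a6*, *Slc16a3*, and *Slc11a2* lost the call, with an edgeR adjusted p of 0.051 to 0.072. The block gave 1 higher (background 2.62%) and 3 lower (background 1.98%) against RIP EV. For RIP EV against its input it gave 1 higher (background 1.80%) and 3 lower (background 3.39%). For the difference between the cell lines it gave 1 smaller (background 1.55%) in place of 2.

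The named values that changed sign had not passed the threshold in the report. Against RIP EV, leaving out each library gave -2.28 to 0.20 for *Slc16a1* (0.20 without RIP EV replicate 1), -1.04 to 1.08 for *Slc38a2* (1.08 without RIP EV replicate 2), and values down to -0.018 (without RIP EV replicate 2) and -0.10 (without RIP Flag-eIF4A2 replicate 2) for *Slc2a1*. *Slc38a2* was 0.018 with the block, and *Slc2a1* was -0.0071 with DESeq2, -0.0079 with RLE, and -0.0033 with all 8 libraries. Against the input, library size gave 0.13 for *Slc25a4*, 0.22 for *Slc16a1*, and 0.21 for *Slc38a2*. Leaving out each library gave -0.50 to 0.22 for *Slc25a4*, -0.25 to 0.071 for *Slc16a1*, and -0.78 to 0.030 for *Slc7a5*. *Slc20a1* was -0.021 with DESeq2 and with RLE, -0.012 with filterByExpr, -0.043 without RIP replicate 2, and -0.17 without input replicate 2. Depth limits RIP EV most, where 3 counts over both libraries correspond to 0.557 CPM.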
